A study of Mus musculus with 2 samples.

Results

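The 32 genes described here encode collagen chains, and their transcripts were followed across the cell types of a sort of mouse lung cells. The genes were chosen by symbol from a table of 32285 genes. Of these, 8 encode fibrillar chains, 8 encode chains of basement membranes and 16 encode chains of other types. The lungs were those of 3-month-old C57BL/6 mice, male and wild type, and were digested with pronase and collagenase. Live singlets were sorted for UV-excited emission at 455 nm, the autofluorescence of stored retinoid, and are called UV-positive. No treatment was compared, and the 2 libraries, from separate sorts, were 10x Chromium 3' libraries in which each captured RNA molecule counts once as a unique molecular identifier (UMI). The number of mice behind each library is not given in the sources used here. The p-values below rest on how differences between groups of cells varied between these 2 libraries, and are not known to measure a spread between mice.

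Collagens are trimers of chains that share a repeating glycine motif. Fibrillar collagens (types I, III and V) form the tensile fibres of the interstitium and of the adventitia, the sleeve around vessels and airways. Type IV collagens form the sheet-like network of basement membranes, on which alveolar epithelium and capillary endothelium rest back to back, and types XV and XVIII sit at the margins of these membranes. Other chains decorate fibrils (types XII, XIV and XVI), form beaded filaments (type VI) or cross the plasma membrane (types XIII, XXIII and XXV). In the lung, fibroblasts are the main source of fibrillar collagen.

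Cells were grouped by marker UMIs, none of them from a collagen gene. Of 9634 cells kept in library 1 and 9988 in library 2, a cell entered a group when exactly 1 class had at least 3 UMIs of its markers. Stromal cells (Tcf21, Mfap4, Pdgfra) were divided by Dcn, the proteoglycan decorin, into adventitial (at least 3 Dcn UMIs; 972 and 986 cells) and alveolar (0 Dcn UMIs; 5783 and 5528 cells), leaving 810 and 893 stromal cells between. The endothelial class (Cdh5, Pecam1, Egfl7) held 55 and 371 cells, the epithelial class (Epcam, Cdh1, Lamp3) 933 and 103, and the immune class (Ptprc, Laptm5, Cd52) 269 and 336. Lists of markers outside the rule that name a group had their highest sums in it. The summed level of 8 endothelial genes was 15264 and 13518 UMIs scaled to 1e6 UMIs (CPM) in endothelial cells and at most 389 CPM in the other groups. A list of 10 epithelial genes summed to 284796 and 234311 CPM in epithelial cells and at most 596 CPM elsewhere. A list of 7 immune genes summed to 11542 and 6619 CPM in immune cells. It reached 581 and 863 CPM in endothelial cells, where Srgn alone had 581 and 851 CPM. The adventitial and alveolar groups were less sharply divided. A list of 8 adventitial fibroblast genes summed to 6592 and 3904 CPM in adventitial and 2993 and 1886 CPM in alveolar cells, and a list of 9 alveolar fibroblast genes to 6738 and 6647 CPM in adventitial and 10527 and 10184 CPM in alveolar cells. The adventitial group carried the alveolar list at a higher sum than its own in both libraries. Endothelial cells held the adventitial list at 2262 and 2505 CPM. Of this, Ly6c1 was 1742 and 2181 CPM, against 11.7 and 4.43 CPM in adventitial cells. Of the adventitial list, Pi16 stood at 206 and 46.8 CPM in adventitial and under 1 CPM in alveolar cells, and 221 of 972 and 79 of 986 adventitial cells held it. The endothelial sum of library 1 was small, at 117137 UMIs, so that 3 UMIs there make 25.6 CPM. In the other sums 3 UMIs make between 0.0775 and 3.34 CPM. A total of 23 cell barcodes occurred in both libraries. Cells with markers of several classes, 415 and 1625, were left out, and no other search for doublets was made.

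Collagen transcripts were most abundant in fibroblasts, and their type changed with the cell type. All 32 genes together reached 8369 and 10492 CPM in adventitial, 5100.2 and 5344 CPM in alveolar, 913 and 1552 CPM in endothelial, 427 and 711 CPM in epithelial and 133 and 114 CPM in immune cells. The order of these totals was the same in both libraries, and no neighbouring pair of groups overlapped. Stromal cells between the cuts lay between the adventitial and alveolar levels, at 6158 and 7419.5 CPM. Fibrillar chains made up 65.4% ± 1.99 (SD, n = 2 libraries) of the collagen UMIs of adventitial cells and 54.9% ± 0.118 of those of alveolar cells. In endothelial cells they were 10.9% ± 4.35 and in epithelial cells 3.16% ± 0.348, where basement membrane chains took 80.4% ± 6.58 and 68.9% ± 5.02. Immune cells held 119 and 209 collagen UMIs in all, and their fibrillar share was 37.4% ± 4.16.

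The small shares depended on how cells were chosen. Cells with at least 2000 UMIs were also thinned to 2000 before the markers were counted, and the others left out. The fibrillar share was then 19.4% in epithelial, 22.6% in endothelial and 58.3% in immune cells. With cells limited to those without any UMI of another class's markers it was 1.87% in epithelial and 6.19% in endothelial cells. The shares in adventitial and alveolar cells moved by under 2 percentage points under these settings.

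**Figure D1:**
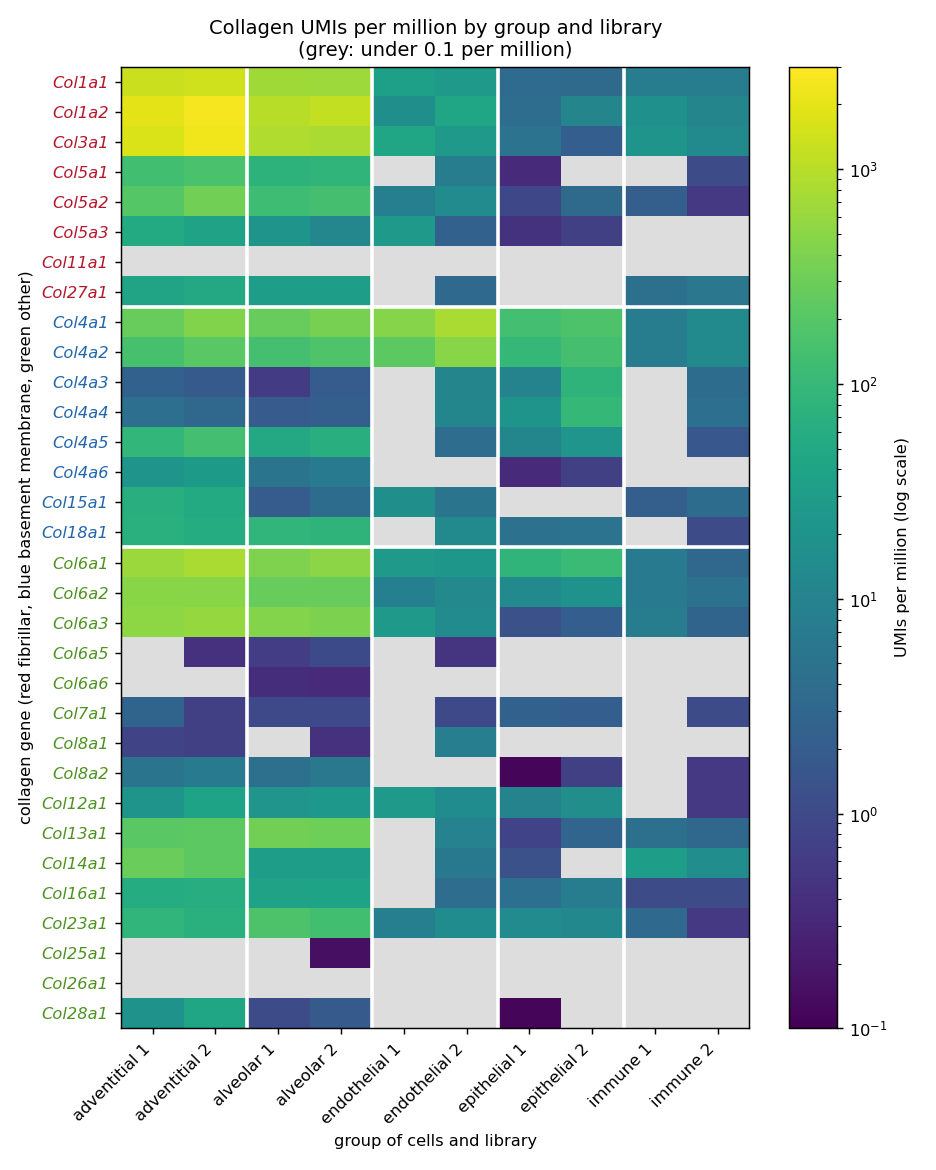
Level of each of the 32 collagen genes (rows) in the 5 groups of cells and 2 libraries (columns), as CPM on a log colour scale, with grey for under 0.1 CPM. Fibrillar genes (red names) are bright in the stromal columns, whereas Col4a1 and Col4a2 are bright in every group but the immune one.

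**Figure D2:**
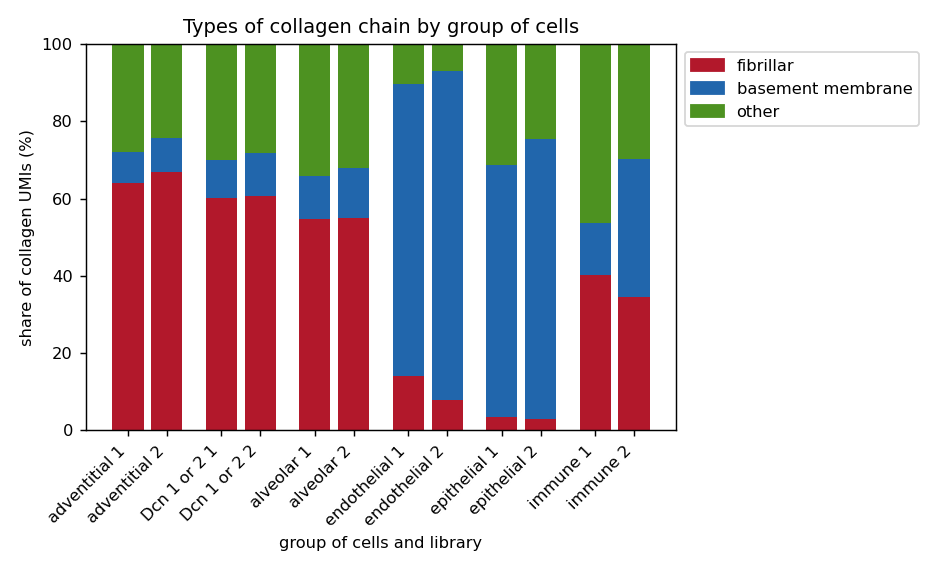
Share of all collagen UMIs (y axis, percent) from fibrillar (red), basement membrane (blue) and other (green) chains, 1 bar for each group and library, with the stromal cells that hold 1 or 2 Dcn UMIs beside the adventitial ones. Fibrillar chains fill more than 54% of each stromal bar and at most 14.0187% of each endothelial or epithelial bar.

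The first comparison asked how the collagens of adventitial and alveolar fibroblasts differ. Of the 32 genes, 25 passed the filter on low counts and were tested with edgeR's quasi-likelihood test on UMIs summed per library and group, with Benjamini-Hochberg adjustment over 13335 genes. Adventitial cells were higher for 14 and lower for 1 of the 25. Over all genes, 5.77% were called higher and 2.92% lower. The median log2 fold change of the 25 genes was 0.81, that of all genes -0.03.

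Of the 7 tested fibrillar genes, 6 were higher in adventitial cells. Col1a1, the larger part of the type I trimer, stood at 1293 and 1451 CPM in adventitial and at 689 and 667 CPM in alveolar cells. The difference was 1.04 on the log2 scale (SE 0.19, adjusted p = 0.0013), with no overlap of the groups. Col1a2, its partner chain, stood at 1953 and 2613 CPM against 975 and 1182 CPM (log2 fold change 1.10, adjusted p = 0.0092). Col3a1, the type III chain of pliable fibres, stood at 1683 and 2364 CPM against 876 and 816 CPM (log2 fold change 1.29, adjusted p = 0.0017). The type V chains, which start and limit the width of type I fibrils, followed, with log2 fold changes of 0.83 for Col5a1, 1.001 for Col5a2 and 1.58 for Col5a3. Col27a1, a chain best known from cartilage, had 40.8 and 49.9 CPM against 32.003 and 31.8 CPM and was not called (adjusted p = 0.11). The ratio of Col1a2 to Col1a1 UMIs was 1.66 ± 0.206 (SD, n = 2) in adventitial and 1.59 ± 0.252 in alveolar cells, a difference within the spread between libraries. Captured 3' ends are not scaled by transcript length, and such ratios describe UMIs rather than protein.

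Among basement membrane genes, Col15a1 stood far apart from the rest. Type XV collagen links basement membranes to nearby fibrils. Col15a1 stood at 66.6 and 54.7 CPM in adventitial cells and at 2.01 and 3.77 CPM in alveolar cells, with a log2 fold change of 4.39 and an SE of 0.29 (adjusted p = 8.5e-08). Col4a5 and Col4a6 lie head to head on chromosome X, with their starts 1309 bases apart in the GENCODE vM21 annotation of GRCm38. Col4a6 had 21.1 and 27.1 CPM against 5.18 and 6.75 CPM (log2 fold change 2.04, adjusted p = 4.2e-05). Col4a5 had 93.2 and 136 CPM against 49.7 and 66.9 CPM (log2 fold change 0.99, adjusted p = 0.0020). Both genes were higher in adventitial cells, and the ratio of Col4a6 to Col4a5 UMIs was 0.213 ± 0.0187 there and 0.102 ± 0.00232 in alveolar cells.

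The chains of the common type IV network did not follow this pattern. Col4a1 had 273 and 428 CPM in adventitial and 272 and 356 CPM in alveolar cells. The groups overlapped, and the difference was 0.16 on the log2 scale (SE 0.21, adjusted p = 0.77). Col4a2 had 149 and 216 CPM against 146 and 175 CPM, also with overlap (adjusted p = 0.74). Col18a1, the source of the fragment endostatin, had 70.0 and 58.5 CPM against 89.4 and 83.2 CPM and was not called (log2 fold change -0.40, adjusted p = 0.32). Col4a3 and Col4a4 were low in both groups, under 5 CPM in every library, and neither was called.

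Of the remaining chains, a fibril-associated and a rarely described one separated the fibroblasts most. Col14a1, the type XIV chain that coats fibrils, had 287 and 224 CPM in adventitial and 32.4 and 32.9 CPM in alveolar cells (log2 fold change 2.97, SE 0.24, adjusted p = 3.4e-07). Col28a1, a chain known from peripheral nerve, had 19.3 and 45.5 CPM against 1.07 and 1.89 CPM. Its log2 fold change of 4.43 (SE 0.28, adjusted p = 9.1e-08) was as large as that of Col15a1. Of the type VI chains, Col6a1 (log2 fold change 0.71) and Col6a2 (0.88) were higher, and Col6a3 (0.41, adjusted p = 0.34) was not called. Col16a1, a second fibril-associated chain, was higher by 0.66 on the log2 scale. Col12a1 (0.36, adjusted p = 0.39) and Col8a2 (0.19, adjusted p = 0.83) were not called.

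Of the transmembrane chains, Col23a1 was lower in adventitial cells and Col13a1 was not called. Col23a1 had 170 and 131 CPM in alveolar and 87.4 and 70.6 CPM in adventitial cells, and was the only tested member called lower there by edgeR (log2 fold change -0.90, SE 0.19, adjusted p = 0.0051). Col13a1, a chain of cell adhesion sites, had 341 and 309 CPM in alveolar and 212 and 225 CPM in adventitial cells. These libraries did not overlap, but Col13a1 was not called (log2 fold change -0.54, adjusted p = 0.16).

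Limits of this comparison were the number of libraries and the choice of fit. With the libraries not entered as a block, 4 genes were called (Col14a1, Col15a1, Col28a1 and Col4a6), and DESeq2 called 9. A fit of the 4 adventitial and alveolar sums alone called 19, the 15 and Col13a1, Col18a1, Col27a1 and Col6a3. Adventitial cells held more myofibroblast transcripts than alveolar ones: Hhip, Aspn and Lgr6 summed to 113 and 77.8 CPM against 16.5 and 32.1 CPM. The 8 smooth muscle and pericyte markers summed to 92.1 and 92.6 CPM against 35.8 and 99.7 CPM. With every cell left out that held a UMI of 15 such markers of other types, the 15 calls were kept and Col18a1 was added.

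**Figure D3:**
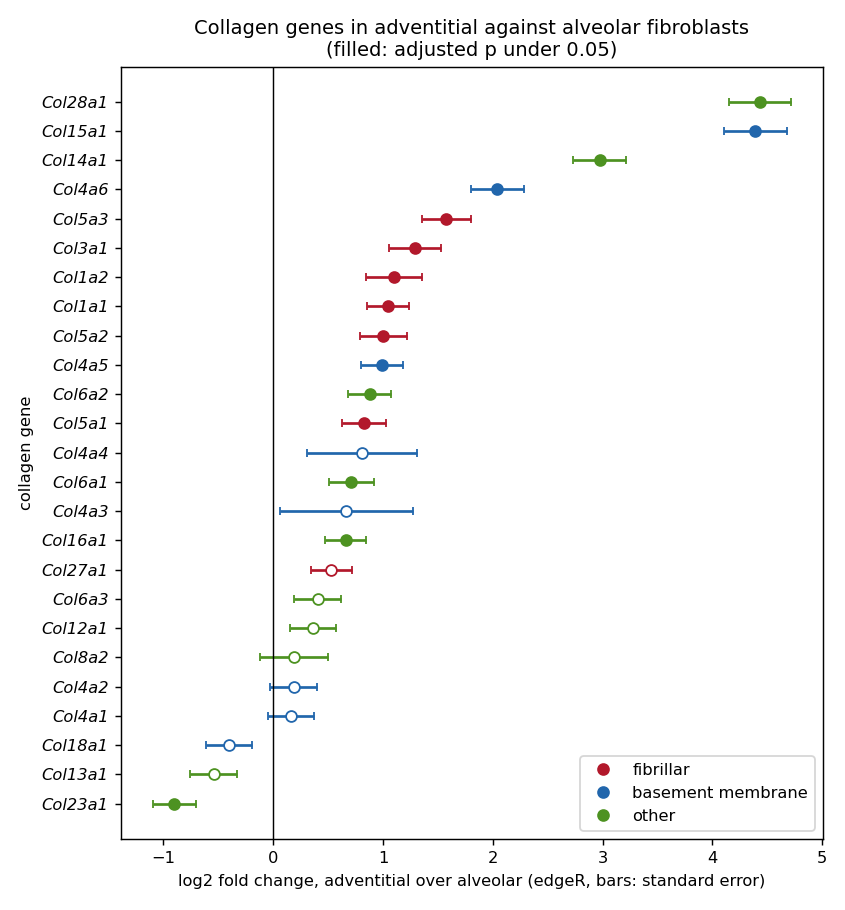
Log2 fold change of the 25 tested collagen genes, adventitial over alveolar (x axis, points with standard errors from edgeR), filled where the adjusted p is under 0.05 and coloured by type. Col28a1 and Col15a1 lie beyond 4, the fibrillar genes near 1, and Col23a1 is the only filled point below 0.

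The sequences before the starts of 4 of these genes are shown because they have the 2 highest (Col28a1, Col15a1) and the 2 lowest (Col23a1, Col13a1) log2 fold changes of the 25 tested, of which that of Col13a1 was not called. They are the 250 bases before the RefSeq start in GRCm38.p6, read 5′ to 3′ on the strand of the gene, and hold no annotated exon. RefSeq promoters matched 26 of the 32 genes. Col1a1 and Col14a1 were among those without an entry. Capitals mark matches, on either strand, to 3 motifs searched by these letters. The TATA box was TATAAA. The CCAAT box was searched by the letters of its name. The GC box was written as GGGCGG, and no matches of different motifs overlap in the windows shown.
Col15a1, chr4:47207762-47208011 (plus): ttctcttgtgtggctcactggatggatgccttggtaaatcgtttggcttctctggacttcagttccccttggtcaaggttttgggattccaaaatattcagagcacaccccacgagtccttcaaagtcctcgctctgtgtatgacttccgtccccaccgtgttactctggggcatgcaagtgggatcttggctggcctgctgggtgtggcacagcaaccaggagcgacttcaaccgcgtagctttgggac
Col28a1, chr6:8192618-8192867 (minus): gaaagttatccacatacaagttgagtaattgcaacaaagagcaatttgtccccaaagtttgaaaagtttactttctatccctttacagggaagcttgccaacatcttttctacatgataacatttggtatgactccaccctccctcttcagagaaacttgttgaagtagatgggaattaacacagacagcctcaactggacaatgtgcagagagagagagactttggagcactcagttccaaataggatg
Col13a1, chr10:61979109-61979358 (minus): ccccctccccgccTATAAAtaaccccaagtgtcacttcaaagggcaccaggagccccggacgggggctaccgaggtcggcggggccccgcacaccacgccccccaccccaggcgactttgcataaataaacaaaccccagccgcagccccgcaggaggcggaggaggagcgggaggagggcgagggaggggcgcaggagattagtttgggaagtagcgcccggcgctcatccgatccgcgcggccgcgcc
Col23a1, chr11:51289670-51289919 (plus): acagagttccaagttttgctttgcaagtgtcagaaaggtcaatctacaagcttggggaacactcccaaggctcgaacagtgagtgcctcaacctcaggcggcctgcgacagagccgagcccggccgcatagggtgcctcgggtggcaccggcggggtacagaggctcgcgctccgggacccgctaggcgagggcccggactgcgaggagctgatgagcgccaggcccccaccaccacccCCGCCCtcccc
Col15a1 and Col28a1 held none of the 3 motifs in this window. Col13a1 held TATAAA 237 to 232 bases before the start, and Col23a1 held the reverse of GGGCGG 11 to 6 bases before it. Of 32817 windows of the same length, 12.4% held TATAAA, 33.8% CCAAT and 32.7% GGGCGG on either strand, and a match is a description of letters, not of a site.

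Because the adventitial and alveolar groups are ranges of Dcn, the genes were also read across bins of it. Col15a1 stood at 2.01 and 3.77 CPM without Dcn UMIs, at 8.30 and 12.9 CPM with 1 or 2, at 37.8 and 38.5 CPM with 3 to 9, at 71.5 and 49.0 CPM with 10 to 29, and at 105 and 83.4 CPM with 30 or more. Col14a1 went from 32.4 and 32.9 CPM in the lowest to 499.6 and 299 CPM in the highest bin, with every step upward in both libraries. Col28a1 went from 1.07 and 1.89 CPM to 26.9 and 58.0 CPM with 10 to 29 Dcn UMIs, and stood at 19.5 and 59.9 CPM in the highest bin. Col1a1 covered a narrower range, from 689 and 667 CPM to 1526 and 1749.9 CPM. Col4a1 had no such course, with 272 and 356 CPM in the lowest and 251 and 412 CPM in the highest bin. Col13a1 went down at every step, from 341 and 309 CPM to 160 and 185 CPM. The median number of UMIs per cell went from 3960.0 and 6548 in the lowest to 7065 and 11198 in the highest bin, and CPM are scaled for the total.

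**Figure D4:**
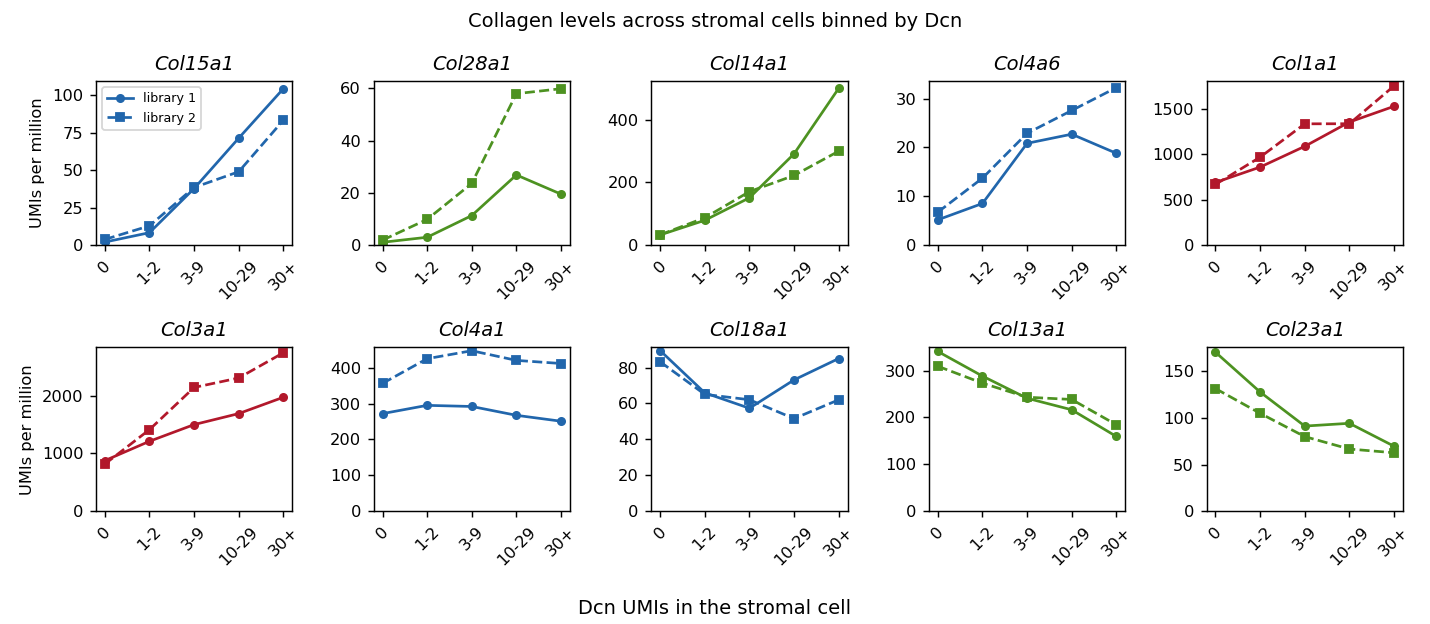
Level of 10 collagen genes (y axis, CPM, from 0) in stromal cells binned by their Dcn UMIs (x axis), with circles and solid lines for library 1 and squares and dashed lines for library 2. Col15a1 and Col14a1 climb with each bin, Col4a1 is level, and Col13a1 falls with each bin in both libraries.

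Within the adventitial group, some of the genes higher in it differed in level between cells with and without Pi16, in different directions. Cells with a Pi16 UMI (221 and 79 cells) had 579 and 442 CPM of Col14a1, and those without it (751 and 907 cells) had 200.3 and 203 CPM. Col15a1 was likewise at 127 and 93.5 CPM with and 48.7 and 51.0 CPM without Pi16. Col28a1 had the reverse order, at 2.13 and 12.9 CPM with and 24.4 and 48.6 CPM without Pi16. The same order held for Col4a6 (12.05 and 9.94 CPM against 23.8 and 28.8 CPM) and Col4a5 (44.7 and 65.6 CPM against 108 and 142 CPM). The values of these 5 genes did not overlap between the subsets, but they are not all of the 14 genes called higher. Col6a1 (593 and 754 CPM with, 659 and 818 CPM without Pi16) and Col5a3 (40.4 and 29.8 CPM against 58.8 and 38.7 CPM) did overlap. How many of all genes lacked overlap was not counted, and the differences were not tested.

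Col13a1 and Col14a1 did not divide the fibroblasts into exclusive sets. At 2000 UMIs per cell, 48.3% of alveolar cells of library 1 held Col13a1 (exact 95% interval 46.9 to 49.7) and 44.0% of those of library 2 (42.7 to 45.3). In adventitial cells the shares were 32.1% (29.1 to 35.1) and 34.2% (31.2 to 37.2). Col14a1 was held by 37.5% and 30.02% of adventitial cells and by 4.73% and 4.58% of alveolar cells. Adventitial cells with UMIs of both genes were 8.83% and 10.2%. Epithelial cells held Col13a1 in 1 of 927 and 0 of 103 cells and Col14a1 in 3 of 927 and 0 of 103 cells at this depth. Cells with fewer than 2000 UMIs were left out, which kept 5054 of 5783 and 5486 of 5528 alveolar cells. Without thinning, 63.2% and 84.2% of adventitial cells held Col13a1, at median depths of 6097.5 and 10698 UMIs, and 69.3% and 81.5% of alveolar cells, at 3960.0 and 6548 UMIs. Intervals cover counting error only.

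In endothelial cells, the type IV network was the main collagen. Against alveolar fibroblasts, 3 of the 25 tested genes were higher and 20 were lower, where 15.1% of all genes were called higher and 17.9% lower. The median log2 fold change was -3.66, or -3.39 with genes at 0 UMIs set at their bound, against -0.16 over all genes. Col4a1 had 452 and 799.5 CPM in endothelial and 272 and 356 CPM in alveolar cells (log2 fold change 0.74, SE 0.22, adjusted p = 0.016). Col4a2, which pairs with it in the trimer, had 222 and 476 CPM against 146 and 175 CPM (log2 fold change 0.90, adjusted p = 0.0059). The libraries did not overlap for either gene. Both calls were lost without the library block, and that of Col4a1 also on thinned cells. Col4a1 and Col4a2 are divergent genes on chromosome 8 whose start sites lie 21 bases apart in the annotation, and the ratio of Col4a2 to Col4a1 UMIs lay between 0.491 and 0.595 in the stromal and endothelial sums.

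Markers of pericytes, which share the capillary basement membrane, were present in the endothelial class of library 2, and how they came there was not tested. Its 54 cells with a UMI of Cox4i2, Higd1b or Notch3 had 929 CPM of Col4a1, 456 CPM of Cox4i2 and 28.6 CPM of Col8a1, and the other 317 cells had 747 CPM of Col4a1 and 0 UMIs of Col8a1. Library 1 had no endothelial cell with these transcripts, and 452 CPM of Col4a1. Col8a1, a network chain of vessel walls, came to 17 UMIs in 10 endothelial cells of library 2, and 9 of these 10 cells also held Myh11. Without cells holding transcripts of other types, Col4a1 and Col4a2 were still called higher.

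The remaining endothelial values ran from below the level of a set of fibroblast reference genes to well over it. Stromal reference genes, 11 in number and chosen for fibroblasts, had a median of 4.93% and 3.42% of their alveolar level in endothelial cells. Col1a1 was at 4.96% and 3.88%, Col3a1 at 4.87% and 3.05%, Col6a1 at 6.23% and 4.64%, and Col13a1 at 0% and 3.16%. In library 2, the deeper one, others were higher, on few UMIs. Col5a1 was at 9.10% (16 UMIs), Col5a2 at 10.03% (29 UMIs), Col16a1 at 9.94% (8 UMIs) and Col27a1 at 10.8% (7 UMIs). Col23a1 was at 11.5% (31 UMIs), Col18a1 at 15.9% (27 UMIs), Col14a1 at 19.3% (13 UMIs) and Col5a3 at 20.8% (5 UMIs). In library 1, Col5a1, Col14a1, Col16a1, Col18a1 and Col27a1 had 0 endothelial UMIs. All 7 tested fibrillar genes were called lower, Col1a1 by -4.85 on the log2 scale (SE 0.27, adjusted p = 1.8e-10), although the libraries overlapped for Col5a3. The part of free fibroblast RNA in these values was not tested. The reference gene Scn7a, a sodium channel, was an exception, at 132% and 147% of its alveolar level. Col12a1 was also over the reference median, at 25.6 and 15.2 CPM against 21.4 and 24.7 CPM in alveolar cells. It was called lower (adjusted p = 0.045), but the libraries overlapped, the first value is 3 UMIs, and DESeq2 and size factors of the RLE kind did not call it. Col18a1 was at 0 UMIs and 13.2 CPM against 89.4 and 83.2 CPM. Col15a1 was at 17.1 and 5.38 CPM and was not called (adjusted p = 0.32). Col4a6, Col8a2 and Col28a1 had no endothelial UMI, which puts Col4a6 at least 4.44-fold, Col8a2 at least 4.01-fold and Col28a1 at least 1.14-fold below its alveolar level, taking 3 UMIs over both libraries as the floor.

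Col4a3 was called higher in endothelial cells, but on few cells. It had 0 and 22 UMIs (0 and 10.8 CPM) there and 0.599 and 1.99 CPM in alveolar cells (log2 fold change 2.15, adjusted p = 0.030). A single cell held 14 of the 22 UMIs, 15 lay in cells with the pericyte transcripts above, and 4 of the 5 cells with Col4a3 also held Ager, a gene of type 1 epithelium. The call was lost under DESeq2, without endothelial replicate 1, without the block, on thinned cells, and with cells limited to 0 UMIs of other classes' markers or of other types. Col4a4 had 0 and 11.2 CPM and was not called (adjusted p = 0.069).

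**Figure D5:**
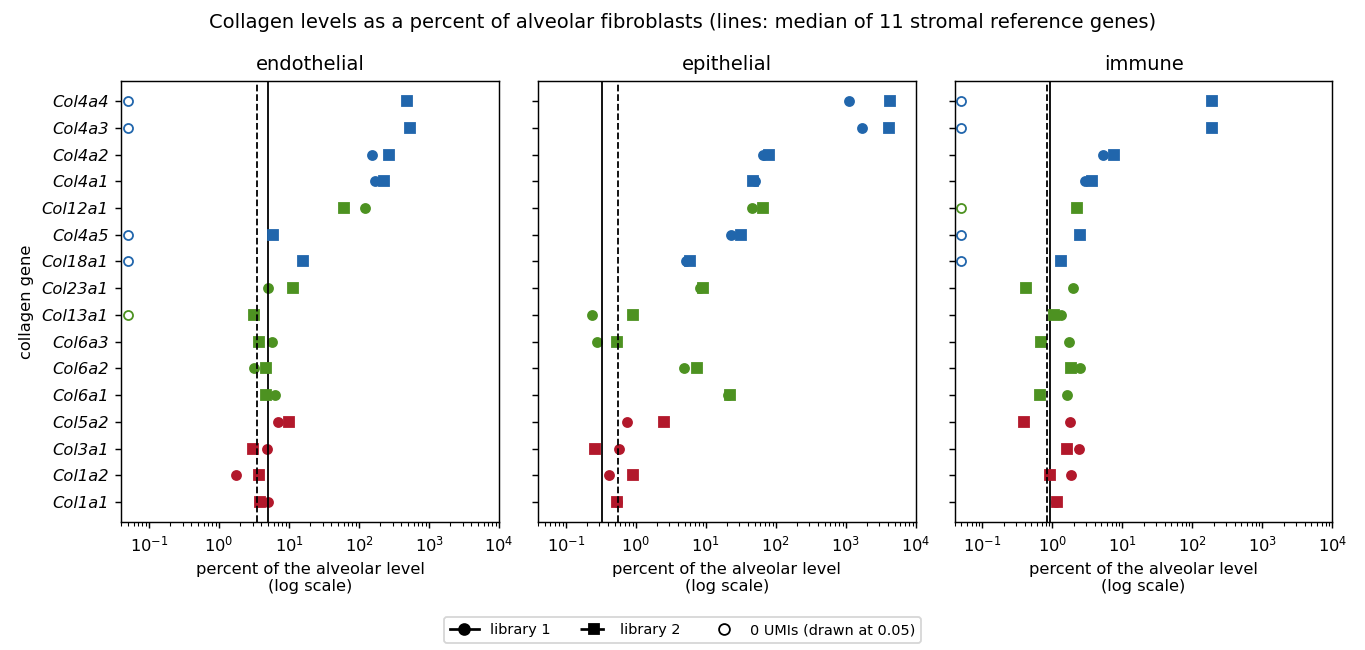
Level of 16 collagen genes as a percent of the alveolar fibroblast level of the same library (x axis, log scale) in endothelial, epithelial and immune cells, with circles for library 1, squares for library 2, open points for 0 UMIs, and vertical lines at the median of 11 stromal reference genes. Col1a1 and Col3a1 lie near the lines, Col4a1 and Col4a2 lie above 100% in endothelial cells, and Col4a3 and Col4a4 lie above 1000% in epithelial cells.

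Epithelial cells carried Col4a3 and Col4a4, both at lower CPM than their Col4a1 and Col4a2 in each library. Against alveolar fibroblasts 2 of 25 genes were higher and 20 lower, where 24.5% of all genes were called higher and 26.4% lower. The median log2 fold change was -3.65, against -0.10 over all genes. Col4a3 and Col4a4, chains of the type IV network of lung alveoli and kidney glomeruli, were the 2 higher genes. Col4a3 had 10.3 and 82.8 CPM in epithelial and 0.599 and 1.99 CPM in alveolar cells (log2 fold change 5.38, SE 0.49, adjusted p = 4.4e-08). Col4a4 had 21.1 and 97.1 CPM against 1.93 and 2.30 CPM (log2 fold change 5.06, adjusted p = 2.4e-08). Library 2 was several times higher than library 1, but neither gene overlapped with the alveolar values. The epithelial sum of library 2 had more Ager, at 1424 CPM against 788 CPM in library 1.

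These 2 genes leave 71 bases between their starts on chromosome 1, shown here on the plus strand because both genes were called together; no base is in capitals, since none of the 3 motifs occurs in it. Col4a4 is read to the left of it and Col4a3 to the right.
Col4a3 and Col4a4, chr1:82586850-82586920: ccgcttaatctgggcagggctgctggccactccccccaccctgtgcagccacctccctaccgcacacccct

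Within the epithelial class of library 2, these chains were higher in cells with Hopx, a gene of type 1 cells chosen after its values were seen and also present in endothelial cells here. The 16 cells with at least 3 Hopx UMIs had 461 CPM of Col4a3 and 388 CPM of Col4a4, and the 67 cells without Hopx had 23.5 and 52.3 CPM. Those 16 cells held 88 of the 116 Col4a3 UMIs and 74 of the 136 Col4a4 UMIs of the class. In library 1 only 7 cells had at least 3 Hopx UMIs, with 12.4 CPM of each gene, which is 1 UMI each. These 7 cells had 270460 CPM of Sftpc, 959 CPM of Lamp3 and 1108 CPM of Ager. The whole epithelial class of library 1 had 245022, 1141 and 788 CPM. The 787 cells without Hopx in library 1 had 9.75 and 20.6 CPM. The first set of library 2 also had 388 CPM of Col4a1 and 78.5 CPM of Col4a5, and the cells without Hopx 124 and 11.7 CPM. These sets were not tested.

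The common type IV chains were not called between epithelium and alveolar fibroblasts. Col4a1 had 136 and 166 CPM in epithelial cells (log2 fold change -0.48, SE 0.21, adjusted p = 0.073) and Col4a2 had 95.9 and 142 CPM (log2 fold change 0.10, adjusted p = 0.74). In plain CPM both were lower than in alveolar cells in each library. Surfactant transcripts took much of the epithelial total, with Sftpc at 245022 and 196747 CPM, and the fit scales for this by factors of 0.694 and 0.782. Col4a5, the third chain of the Col4a3 and Col4a4 trimer, had 11.3 and 21.4 CPM (log2 fold change -1.37, adjusted p = 6.1e-05).

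The type VI chains came apart in epithelium. Col6a1 had 85.5 and 111 CPM, 20.8% and 22.3% of the alveolar level, and Col6a2 had 13.1 and 19.98 CPM, or 4.86% and 7.41%. Col6a3, the third chain of the same filament, had 1.27 and 2.14 CPM, or 0.283% and 0.538%. The stromal reference genes had a median of 0.328% and 0.560% of their alveolar level in epithelial cells, with Ces1d as an exception at 75.4% and 71.8%. Col6a3 was at this reference level and Col6a1 over it in both libraries. Per Col6a1 UMI, epithelial cells had 0.0171 ± 0.0032 (SD, n = 2) of Col6a3 and alveolar cells had 0.946 ± 0.201. All 3 were called lower than in alveolar fibroblasts, with log2 fold changes of -1.66 for Col6a1, -3.56 for Col6a2 and -7.66 for Col6a3.

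Other chains were also over the reference level in epithelium. Col12a1 was at 9.91 and 16.4 CPM, 46.2% and 66.4% of the alveolar level, and was not called (log2 fold change -0.32, adjusted p = 0.31). Col16a1 was at 11.3% and 19.97% and Col23a1 at 8.39% and 9.24% of the alveolar level, both called lower. The main fibrillar genes were at the reference level, Col1a1 at 0.535% in either library and Col3a1 at 0.579% and 0.262%. Col27a1 and Col15a1 had no epithelial UMI, which puts Col27a1 at least 107-fold and Col15a1 at least 10.4-fold below its alveolar level.

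Immune cells were low in nearly all collagens. Against alveolar fibroblasts, 21 of the 25 tested genes were called lower and 4 were not called, where 24.4% of all genes were called higher and 28.1% lower. The median log2 fold change was -5.77, or -5.34 with genes at 0 UMIs set at their bound, against -0.17 over all genes. Col1a1 had 7.80 and 7.67 CPM, 1.13% and 1.15% of the alveolar level, beside a median of 0.932% and 0.831% for the stromal reference genes. Col4a1 had 7.80 and 13.1 CPM (log2 fold change -4.63, adjusted p = 5.9e-10). The genes not called were Col4a3, Col4a4, Col14a1 and Col15a1, the first pair of them with 0 UMIs in library 1 and 7 and 8 UMIs in library 2.

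Col14a1 was the highest collagen gene of immune cells in both libraries, at 31.2 and 15.9 CPM, beside 32.4 and 32.9 CPM in alveolar fibroblasts (log2 fold change -0.30, SE 0.30, adjusted p = 0.44). Its UMIs lay in 15 of 269 and 12 of 336 immune cells. Of these, 14 of 15 and 12 of 12 held C1qa, a complement gene of macrophages, which 49 and 27 immune cells held in all. None of the 27 cells held a UMI of Dcn or Col1a1, but few immune cells did at all. Dcn was held by 4 of 269 and 7 of 336 of them and Col1a1 by 6 and 13. C1qa was set beside Col14a1 after the values were seen. Col27a1 was also over the reference level, with 4 and 11 UMIs (4.46 and 6.02 CPM), and was called lower than in alveolar cells (log2 fold change -2.29, adjusted p = 2.6e-05). Further genes were over the reference median in both libraries. Col4a2 was at 5.35% and 7.49% of the alveolar level, Col4a1 at 2.87% and 3.69%, and Col16a1 at 2.95% and 2.79%. Col3a1 was at 2.42% and 1.61%, Col6a2 at 2.47% and 1.83%, and Col15a1 at 111% and 102%. Others, such as Col6a1 at 1.63% and 0.664%, were over it in library 1 only, and Col5a3, Col4a6 and Col28a1 had no immune UMI.

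Set against each other, endothelial and epithelial cells differed in the levels of their type IV chains. Endothelial cells were higher for 13 and lower for 5 of 25 genes, where 19.8% of all genes were called higher and 20.4% lower. The share called lower was thus about that of all genes. The median log2 fold change was 0.80, against -0.02 over all genes. Col4a1 (log2 fold change 1.21, adjusted p = 0.00037) and Col4a2 (0.80, adjusted p = 0.012) were higher in endothelium. Col4a3 (-3.23), Col4a4 (-3.33) and Col4a5 (-3.01) were higher in epithelium, as were Col6a1 (-2.89, adjusted p = 6.5e-07) and Col6a2 (-1.09). Col6a3 was higher in endothelium (2.76). The 7 tested fibrillar genes were all called higher in endothelium, beside the higher level of the stromal reference genes there. Thinning to 2000 UMIs per cell left 11 calls, 9 of them shared, and lost Col6a2 and all tested fibrillar genes but Col3a1. With cells limited to 0 UMIs of other classes' markers, 12 genes were called, 11 of them shared, and Col4a2, Col6a3, Col1a1, Col1a2, Col5a1, Col5a3 and Col14a1 were lost. Col4a2 was also lost without the library block, and Col6a2 and Col4a3 without epithelial replicate 2.

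Of the 7 members that failed the filter on low counts, none exceeded 8.31 CPM in any group. Col11a1 and Col26a1 had no UMI in any of the 5 groups, which allows at most 0.0483 CPM in alveolar cells of both libraries together. Col25a1 had 6 UMIs in alveolar cells and 1 in adventitial cells. Col6a5 and Col6a6, late members of the type VI family, were seen mainly in alveolar cells, Col6a5 with 15 and 39 UMIs and Col6a6 with 9 and 14 UMIs, beside 5 and 1 adventitial UMIs in library 2. Col7a1, the anchoring fibril chain of skin, stood at 2.42 and 2.14 CPM in epithelial, 2.76 and 0.695 CPM in adventitial and 0.984 and 0.956 CPM in alveolar cells, and the adventitial values overlapped with both others. Col8a1 had 17 endothelial UMIs, described above, and under 1 CPM in the stromal groups.

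The enzymes that fold, trim and cross-link collagen followed the fibroblasts more weakly. Of 33 listed genes 29 were tested, and 5 were higher and 1 lower in adventitial than in alveolar cells, with a median log2 fold change of 0.25. Over all genes, the shares called were 5.77% higher and 2.92% lower in this comparison. Adamts2, which cuts the N-terminal propeptide of fibrillar collagens, had 262 and 311 CPM against 91.9 and 118 CPM (log2 fold change 1.48). Bmp1, which cuts the C-terminal one, had 27.9 and 29.6 CPM against 11.8 and 14.2 CPM (1.18). Colgalt2, a collagen galactosyltransferase, was the lower gene (-1.34). Against alveolar fibroblasts the list had 20 lower and 9 uncalled genes in endothelial cells (17.9% of all genes were lower), among them Loxl1, a cross-linking oxidase (-6.20), and Adamts3, with no endothelial UMI and at least 3.31-fold lower. In epithelial cells 4 were higher and 20 lower, beside 24.5% and 26.4% of all genes, so that the higher share was below that of all genes. Bmp1 had 105 and 261 CPM there (4.26), P3h2, a prolyl hydroxylase that favours type IV chains, had 1.96 and 6.42 CPM against 0.171 and 0.336 CPM (4.49), and Adamts2 (-8.29) and Colgalt2 (no UMI, at least 72.4-fold) were lower. In immune cells 1 was higher (P3h2, 4.32) and 24 were lower, beside 24.4% and 28.1% of all genes, with no UMI of Fkbp10 (at least 39.8-fold) or Adamts3 (at least 4.17-fold). Between endothelium and epithelium 14 were higher and 6 lower, beside 19.8% and 20.4% of all genes. Colgalt2 (at least 52.8-fold) and Loxl2 (6.08) were on the endothelial side, and P3h2 (at least 1.86-fold) and Bmp1 (-4.41) on the epithelial side. Loxl2 had 0 and 19.5 CPM in endothelial and 0 and 0.714 CPM in epithelial cells, so that its call rests on library 2.

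Receptors for collagen were divided among the groups. Of 10 listed genes 8 were tested. Over all genes, 5.77% were called higher and 2.92% lower in adventitial than in alveolar cells, and 15.1% and 17.9% in endothelial cells. These shares were 24.5% and 26.4% in epithelial and 24.4% and 28.1% in immune cells. For endothelial against epithelial cells they were 19.8% and 20.4%. The 2 of 8 higher in immune cells and the 2 lower in endothelial than in epithelial cells are near the shares of all genes. In adventitial cells Itga11 (log2 fold change 2.05) and Ddr2 (0.99), a fibrillar collagen receptor kinase, were higher and Mrc2, an uptake receptor, was lower (-0.80), with a list median of -0.10. Itga1 and Itga2, the integrin chains that bind type IV and type I collagen, were higher in endothelial than in alveolar cells (5.43 and 6.21). Itga1 had 743 and 864 CPM in endothelial cells and 12.3 and 18.5 CPM in alveolar cells. Mrc2 (-7.18) and Ddr1 (-4.93) were among the 3 lower genes. In epithelial cells 4 were lower and 4 not called, led by Ddr2 (-5.61) and Mrc2 (-4.06), where 26.4% of all genes were lower. In immune cells Lair1, an inhibitory collagen receptor of leukocytes, had 85.8 and 65.2 CPM against 0 and 0.0775 CPM (10.49). Itga2 was the other higher gene (3.19), at 0 and 8.21 CPM against 0.342 and 0.853 CPM. Mrc2 (-5.74) and Ddr2 (-5.30) led the 4 lower ones. Between endothelium and epithelium, Itga1 (5.48) and Itga2 (5.41) led 4 higher and Ddr1 (-3.78) and Mrc2 (-3.12) were the 2 lower genes.

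The laminins and other partners of type IV collagen were read in the same way. Of 15 listed genes 14 were tested. Over all genes, 5.77% were called higher and 2.92% lower in adventitial than in alveolar cells, and 15.1% and 17.9% in endothelial cells. These shares were 24.5% and 26.4% in epithelial cells, and 19.8% and 20.4% for endothelial against epithelial cells. The 4 of 14 higher in epithelial cells are near the share of all genes, and the 2 higher in immune cells are below it. Adventitial cells were higher for 4, led by Lamc3 (146.8 and 38.0 CPM against 10.2 and 12.1 CPM, log2 fold change 2.78) and Lama3 (2.29), and lower for 2, Lama5 (-2.17) and Lamb3 (-1.52). Endothelial cells were higher than alveolar cells for 3, among them Lama3 (2.98) and Nid2 (2.69), both at 0 UMIs in library 1, and lower for 6, led by Lama2 (-4.51) and Lamb1 (-4.25). Epithelial cells were higher for 4, led by the laminin chains Lama3 (5.83) and Lamb3 (86.0 and 92.8 CPM, 5.10), and lower for 8, led by the linker Nid1 (-8.52) and by Lamb1 (-6.65). Immune cells were higher for 2, Nid2 (2.63) and Lamb3 (2.19), and lower for 10, beside 24.4% and 28.1% of all genes, with Lama4 at -6.93 and no UMI of Lamc3 (at least 10.3-fold). Endothelial cells were higher than epithelial ones for 6, with Nid1 at 7.83 and Nid2 at least 23.3-fold, and lower for 4, among them Lamb3 (-6.56). The median log2 fold changes of the list were 0.34 in adventitial, -1.14 in endothelial, -2.22 in epithelial and -4.80 in immune cells against alveolar fibroblasts. With genes at 0 UMIs set at their bound, the last 2 were -1.63 and -4.58.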

How the data were processed

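A pair of libraries of sorted mouse lung cells were used, and the deposited matrices hold whole UMI counts per gene and barcode, made by the authors with Cell Ranger 5.0.1 on mm10 per the labels, not normalized. Cells entered with 200 or more genes and no more than 10% of UMIs from mitochondrial genes, giving 9634 and 9988 cells with 48663016 and 93808378 UMIs. Groups followed the marker rule of the report. UMIs were summed per library and group, giving 10 sums, and fitted together in edgeR 4.0.16 (R 4.3.3) by glmQLFit and glmQLFTest, with TMM scaling, filterByExpr and the library as a block, which left 4 residual degrees of freedom. Tests were two-sided, and an adjusted p under 0.05 was called. The 13 marker genes of the rule were not tested. SE is the absolute log2 fold change divided by the square root of F. The fit was tested on simulated counts. Genes named from the 3 pathway lists are the 2 with the largest absolute log2 fold change called in each direction, in each of 5 comparisons, and 1 gene that this rule names is not reported here. Genes with no UMI in a group rank by their fitted fold change, which is no bound. The members and lists were chosen with earlier results of these data known. Because the groups are cells of the same 2 libraries, the library pairs them. Alternatives were DESeq2 1.42.0, RLE scaling, no filter, no replicate block, single libraries, other thresholds for markers and mitochondrial UMIs, thinned cells and, for adventitial against alveolar cells, 4 sums alone or at least 5 Dcn UMIs. Leaving out cells with transcripts of other types, endothelial replicate 1 or epithelial replicate 2 was added after seeing the data. Gene positions are from GENCODE vM21 (GRCm38).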

Additional observations from a re-analysis of the deposited data

Results flagged for a closer look

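The table holds 12 collagen chain genes outside the 32 described, none of which entered a comparison. A gene is given here where its UMIs in a fibroblast group exceeded, in both libraries, the 3 that a count of 0 allows. Col17a1, a transmembrane chain of epithelial attachment sites, had 67 and 147 UMIs in adventitial and 331 and 764 UMIs in alveolar fibroblasts, or 14.2 and 19.7 CPM in the latter. In epithelial cells it had 0.115 and 0 CPM. Col20a1 had 32 and 56 UMIs, Col22a1 9 and 15 UMIs and Col11a2 6 and 11 UMIs in alveolar cells. Col24a1 had 5 and 5 UMIs in adventitial cells.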

How the results depend on the processing

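Against main counts of 15, 23, 22, 21 and 18 collagen genes called in the 5 comparisons in the order of the report, most alternatives gave counts within 1.5 times. The exceptions were 9 (DESeq2) and 4 (no replicate block) between adventitial and alveolar cells and 11 between endothelial and epithelial cells thinned to 2000 UMIs. With a whole library left out, no fit can be made, and the number of called genes whose CPM ratio in the library left kept its direction was 15 in either library, 20 to 23, 22, 21 and 14 to 18. Fits without endothelial replicate 1 or epithelial replicate 2, added after seeing the data, called 15 to 16, 23 to 25, 21 to 23, 21 and 17 to 18 genes, the lone sum being assumed to vary like the other groups. Without the library block, Col4a1 and Col4a2 were also lost between endothelial and alveolar cells.

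Thinning turned the log2 fold change of Col4a3 to -0.36 (adventitial over alveolar), Col12a1 to 0.10 (epithelial over alveolar), Col14a1 to 0.22 and Col4a4 to -0.74 (immune over alveolar) and Col6a2 to 0.0055, Col5a3 to -0.05, Col14a1 to -0.98, Col16a1 to 0.87 and Col23a1 to 0.11 (endothelial over epithelial), of which Col6a2, Col5a3 and Col14a1 had been called. DESeq2 turned Col28a1 to 0.71 in that comparison. Limiting cells to 0 UMIs of other classes' markers turned Col4a4 to -0.75 (endothelial over alveolar), and Col15a1 to -0.40, Col4a3 to -0.59 and Col4a4 to -6.94 (immune over alveolar). Leaving out cells with transcripts of other types, chosen after seeing the data, turned Col4a4 to -7.42 (endothelial over alveolar). Col12a1 between endothelial and alveolar cells ranged from -1.06 (without endothelial replicate 1) to 0.26 (CPM ratio without library 2). The fibrillar share moved to 54.5% (alveolar), 22.6% (endothelial), 19.4% (epithelial) and 58.3% (immune) on thinned cells, to 6.19%, 1.87% and 32.8% in the last 3 groups with 0 UMIs of other classes' markers, to 4.04% in epithelial cells with 5 marker UMIs, and to 54.2% in alveolar and 2.23% in epithelial cells without transcripts of other types. The cause was not tested. The endothelial sum of library 1 limits depth, at 25.6 CPM for 3 UMIs.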

Other observations

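Cells outside the groups also carried collagen transcripts. The 146 cells of library 2 with fewer than 3 UMIs of each class's markers had 68.9 CPM of Col4a3 and 105 CPM of Col4a4, beside 2113 CPM of Ager and 921 CPM of Hopx, and the 397 such cells of library 1 had 0 and 4.24 CPM of the 2 collagen genes beside 59.4 CPM of Ager. Cells with markers of several classes had 196 and 502 CPM of Col4a1 and 349.9 and 345 CPM of Col1a1.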
